A study of Mus musculus with 4 samples.

Results

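T cells and cytotoxic lymphocytes were followed through 10 genes in the brains of hypertensive and normotensive mice after sham surgery or stroke. The genes were chosen by name as the CD3 chains Cd3d, Cd3e and Cd3g, the coreceptors Cd4, Cd8a and Cd8b1, the adhesion receptor Cd2, the T cell receptor constant region Trbc2, and the granule genes Gzma and Nkg7. All 10 were among the 33981 genes in the deposited tables. Poly(A) RNA was sequenced from coronal brain slices with the prefrontal cortex in them, taken from male C57BL/6J mice aged 3 to 5 months. Normotensive NT + Sham and NT + Stroke mice were infused with saline. Hypertensive HT + Sham and HT + Stroke mice were infused with angiotensin II, and their daily dose was 0.28 mg/kg. Infusion went on for 28 days in all groups. Sham surgery or photothrombotic stroke of the prefrontal cortex, in which light clots the vessels of a small area of cortex, was performed on day 7. Brains were collected on day 28 after blood had been flushed from the vessels. There were 6 libraries per group, numbered 1 to 6 here, and 24 in all. The labels do not say that each library is a separate mouse, so the tests measure the spread between these libraries.

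A T cell recognizes its antigen through a receptor made of an alpha and a beta chain, each with a variable part joined from gene segments and a constant part. The receptor reaches the cell surface only together with the CD3 chains, which carry the signal inward. CD4 and CD8 mark the helper and cytotoxic branches and bind to class II and class I molecules of the presenting cell. Cytotoxic T cells and natural killer cells store granzymes and other proteins in granules that are released onto target cells. The healthy brain holds few such cells, and they enter injured tissue in the days and weeks after a stroke.

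The library totals were 15922919 to 24865998 counts, with a median of 18497216. At this depth most of the genes had only a few counts per library, and so counts are given in full below, in the order of libraries 1 to 6. In bulk tissue, fewer cells of a type and less RNA per cell cannot be told apart. A few libraries stood apart from their groups. In libraries 1 and 6 of HT + Stroke, Gfap (an astrocyte filament protein that rises with injury) and Cd68 (a lysosomal protein of phagocytes) were at 4376 and 3616 counts and at 345 and 294 counts, against group medians of 17390 and 959.5. Library 6 of HT + Sham had 10975 counts of Gfap and 543 of Cd68, the highest of the sham libraries. The 10 genes in HT + Stroke are given with and without libraries 1 and 6.

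Most of the 10 genes were scarce, and a pair of them was not. Over all libraries, Trbc2 had 220 to 593 counts and Cd4 had 29 to 549. The other 8 genes had at most 31 counts in any library, and their counts together came to 12 to 43 in the sham libraries and to 22 to 129 in the stroke libraries. Per length of transcript, Trbc2 was at 17.5 to 42.3 FPKM (fragments scaled to transcript length and library size) in the 24 libraries and Cd4 at 0.367 to 7.80 FPKM, while Nkg7, the highest of the rest, reached 1.11 FPKM. The plot of counts by library shows this split between abundant and scarce genes.

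**Figure D1:**
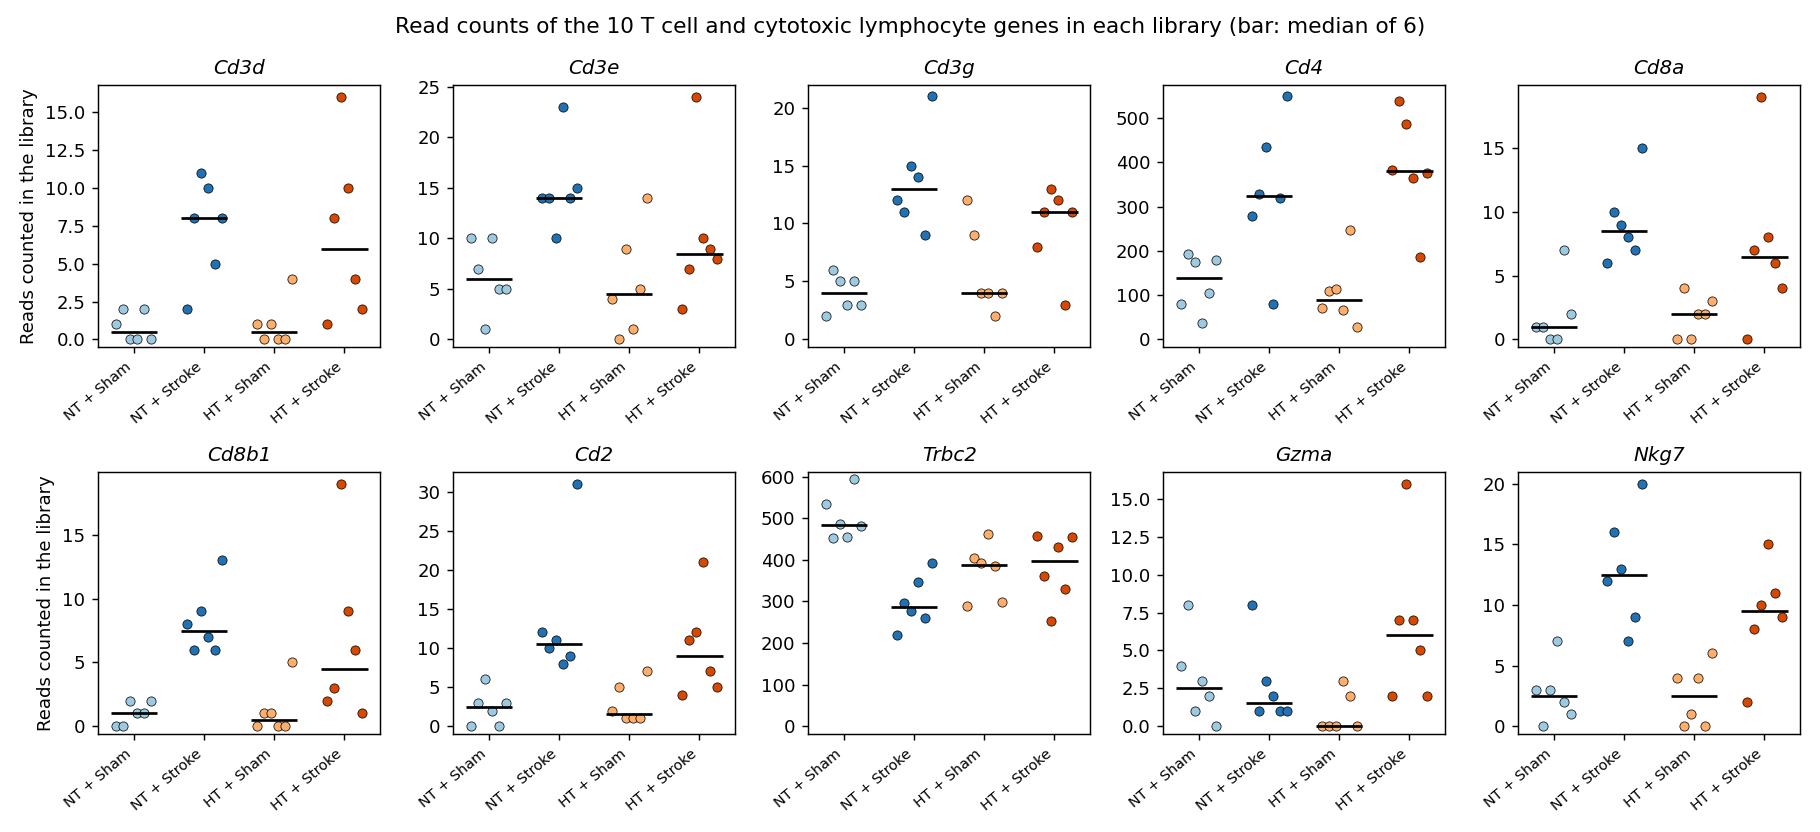
Read counts (vertical axis, linear, a separate scale per gene) of the 10 genes in each of the 24 libraries, grouped by condition, with points in the order of libraries 1 to 6 and a bar at the median of 6. Counts of the CD3, CD8, Cd2 and Nkg7 genes are low in both sham groups, Trbc2 is at 220 counts or more in every library, and in NT + Stroke all 6 Trbc2 counts are below those of NT + Sham.

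The first comparison was NT + Stroke vs NT + Sham, the response to stroke without hypertension. The CD3 chains, both CD8 chains, Cd2 and Nkg7 were higher after stroke, and Trbc2 was lower. Only Cd3e, Cd4 and Trbc2 had enough counts to pass the filter of the edgeR quasi-likelihood test, and of these 3 genes Cd3e rose and Trbc2 fell, against 25.9% of the 16835 genes tested that were called in either direction (Benjamini-Hochberg adjusted p below 0.05). Of those calls 55.6% were higher, or 74.5% with no scaling beyond library size. At an unadjusted p below 0.05 the share of genes was 36%. Since the filter keeps a scarce gene mainly through the group where it is high, all 10 genes were also fitted with no filter. In that fit 6 of the 10 genes rose, against 7.05% of 32743 genes, and 1 fell, against 6.07% (24.3% in either direction at an unadjusted p below 0.05). DESeq2 called 9 of the 10, all but Gzma, against 22.9% of genes. The median log2 fold change of the 10 genes was 1.86, beside -0.02 over all genes in the same fit. The log2 fold changes below are from the fit with no filter unless stated.

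Cd3d had 1, 2, 0, 0, 2 and 0 counts in NT + Sham and 2, 8, 11, 10, 5 and 8 in NT + Stroke. Only stroke library 1 reached down to the sham range, and the group sums were 5 and 44 counts. The difference was 2.86 ± 0.72 (log2 fold change ± SE, adjusted p = 0.00305 by edgeR). Cd3g had 2, 6, 5, 3, 5 and 3 counts in NT + Sham and 12, 11, 15, 14, 9 and 21 in NT + Stroke. Every stroke library was above every sham library, and the difference was 1.61 ± 0.43 (adjusted p = 0.00558 by edgeR).

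Cd3e had 10, 7, 1, 10, 5 and 5 counts in NT + Sham and 14, 14, 10, 23, 14 and 15 in NT + Stroke. In CPM (the count scaled to the library total after a correction described under processing) the groups did not overlap. The rise of 1.12 ± 0.35 passed in the filtered test (adjusted p = 0.0241 by edgeR), but not with no filter, at 1.10 ± 0.39 (adjusted p = 0.0524). It also failed to pass with all 24 libraries in 1 fit, at 1.12 (adjusted p = 0.0916 by edgeR), and without NT + Sham library 5 or 6 or NT + Stroke library 4, with a highest adjusted p of 0.0536 by edgeR over all libraries left out in turn. Cd3e overlaps the annotated genes Gm48719 on the opposite strand and Gm48720 on its own, so part of its few counts could be shared.

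Cd3g, Cd3d and Cd3e lie side by side on chromosome 9 (GRCm38, chr9:44969572-44980431, chr9:44981786-44987339 and chr9:44998740-45009627), and the first pair is read from opposite strands. The 250 bases before the annotated start are shown for Cd3g and Cd3d, as the neighbours that rose together, and for Cd8a (RefSeq, GRCm38.p6, strand of the gene), with E-boxes of the letters CANNTG on both strands in capitals. An E-box is the short motif bound by basic helix-loop-helix factors, a family that includes regulators of T cell development.
Cd3g (chr9:44980432-44980681, minus strand): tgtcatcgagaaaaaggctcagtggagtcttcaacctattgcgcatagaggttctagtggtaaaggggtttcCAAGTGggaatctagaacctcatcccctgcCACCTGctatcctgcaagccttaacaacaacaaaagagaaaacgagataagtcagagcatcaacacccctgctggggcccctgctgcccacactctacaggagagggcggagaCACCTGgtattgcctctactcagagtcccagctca
Cd3d (chr9:44981536-44981785, plus strand): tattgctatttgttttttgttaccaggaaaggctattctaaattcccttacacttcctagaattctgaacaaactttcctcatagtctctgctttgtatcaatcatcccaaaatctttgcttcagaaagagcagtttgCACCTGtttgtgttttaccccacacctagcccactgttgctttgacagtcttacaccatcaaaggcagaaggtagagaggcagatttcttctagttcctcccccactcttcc
Cd8a (chr6:71373177-71373426, plus strand): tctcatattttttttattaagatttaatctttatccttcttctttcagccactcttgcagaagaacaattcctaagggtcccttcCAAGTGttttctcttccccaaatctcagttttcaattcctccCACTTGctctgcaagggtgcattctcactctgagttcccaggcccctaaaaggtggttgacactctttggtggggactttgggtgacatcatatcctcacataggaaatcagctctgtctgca
The windows of Cd3g, Cd3d and Cd8a held 3, 1 and 2 such motifs. At least 1 was found in 66.2% of all 32851 promoter windows of the same length, so the match describes these letters and marks no site. Promoter windows were found for 6 of the 10 genes.

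The CD8 genes encode the chains of the coreceptor of cytotoxic T cells and are also neighbours, on chromosome 6 (chr6:71373427-71379173 for Cd8a and chr6:71322788-71337494 for Cd8b1). Cd8a had 1, 1, 0, 0, 7 and 2 counts in NT + Sham and 6, 10, 9, 8, 7 and 15 in NT + Stroke. Sham library 5 lay within the stroke range, and the difference was 2.16 ± 0.60 (adjusted p = 0.00872 by edgeR). Cd8b1 had 0, 0, 2, 1, 1 and 2 counts in NT + Sham and 8, 6, 9, 7, 6 and 13 in NT + Stroke. The groups did not overlap, with sums of 6 and 49 counts, and the difference was 2.75 ± 0.66 (adjusted p = 0.00169 by edgeR).

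Cd2, an adhesion receptor of T cells and natural killer cells (chr3:101275899-101287939), had 0, 3, 6, 2, 0 and 3 counts in NT + Sham and 12, 10, 11, 8, 9 and 31 in NT + Stroke. Library 6 of NT + Stroke was far above the rest, and the groups overlapped in CPM but not in counts. The difference was 2.29 ± 0.54 (adjusted p = 0.00128 by edgeR). Nkg7, a granule membrane protein of cytotoxic cells (chr7:43437073-43438249), had 3, 0, 3, 7, 2 and 1 counts in NT + Sham and 12, 16, 13, 7, 9 and 20 in NT + Stroke. Sham library 4 was level with the lowest stroke library in counts, and the difference was 2.12 ± 0.51 (adjusted p = 0.0019 by edgeR).

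Gzma, the granule protease granzyme A (chr13:113093825-113100981), stood out from these genes. It had 4, 8, 1, 3, 2 and 0 counts in NT + Sham and 8, 1, 3, 2, 1 and 1 in NT + Stroke. The groups covered the same range, at -0.25 ± 0.75 on the log2 scale (adjusted p = 0.885 by edgeR).

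In CPM, 3 of the 10 genes (Cd3e, Cd3g and Cd8b1) were higher in every NT + Stroke library than in any NT + Sham library, against 4.31% of all genes, and 1 (Trbc2) was lower, against 2.97%. The summed count of the CD3 chains was 6 to 15 in NT + Sham and 28 to 47 in NT + Stroke.

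The same comparison under angiotensin II, HT + Stroke vs HT + Sham, had wider spread. None of the 10 genes was called by edgeR. Only Cd4 and Trbc2 passed the filter, and 0.645% of 16741 genes were called in all, 0.544% higher and 0.102% lower. With no filter 0.55% of 32562 genes were called, 0.458% higher and 0.0921% lower, and with unadjusted p below 0.05 the shares were 17% and 12.9%. DESeq2 gave an adjusted p for 6 of the 10 genes and called 1 of them (Cd4), against 4.88%, and left Cd3d, Cd8a, Cd8b1 and Gzma without one. The median log2 fold change of the 10 genes with no filter was 1.78, beside 0.01 over all genes. Since the number of calls over all genes differed so much between the groups of mice, a gene called after stroke in NT and not in HT mice is not thereby shown to respond differently, and the test of that difference is given further on.

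Cd3d had 1, 0, 1, 0, 0 and 4 counts in HT + Sham and 1, 8, 16, 10, 4 and 2 in HT + Stroke. In CPM, stroke libraries 1 and 6 lay within the sham range, which sham library 6 widened, and the difference was 2.53 ± 0.76 (adjusted p = 0.133 by edgeR). Cd3g had 12, 9, 4, 4, 2 and 4 counts in HT + Sham and 8, 11, 13, 12, 3 and 11 in HT + Stroke, and in CPM sham library 1 was above every stroke library. Cd3e had 4, 0, 9, 1, 5 and 14 counts in HT + Sham and 3, 7, 24, 10, 9 and 8 in HT + Stroke. For both genes the groups overlapped widely, at 0.63 ± 0.47 for Cd3g and 0.80 ± 0.54 for Cd3e (adjusted p = 0.555 and 0.502 by edgeR).

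Cd8a had 0, 4, 0, 2, 2 and 3 counts in HT + Sham and 0, 7, 19, 8, 6 and 4 in HT + Stroke. Cd8b1 had 0, 1, 1, 0, 0 and 5 in HT + Sham and 2, 3, 19, 9, 6 and 1 in HT + Stroke. For both chains stroke library 3 was the highest. In CPM, stroke library 1 was the only one within the sham range for Cd8a, and stroke libraries 1, 2 and 6 were within it for Cd8b1. The differences were 1.80 ± 0.70 for Cd8a and 2.28 ± 0.77 for Cd8b1 (adjusted p = 0.267 and 0.196 by edgeR).

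Cd2 had 2, 5, 1, 1, 1 and 7 counts in HT + Sham and 4, 11, 12, 21, 7 and 5 in HT + Stroke. Nkg7 had 4, 0, 1, 4, 0 and 6 in HT + Sham and 2, 8, 10, 15, 11 and 9 in HT + Stroke, so that for Nkg7 only stroke library 1 was within the sham range. The differences were 1.69 ± 0.54 for Cd2 and 1.75 ± 0.60 for Nkg7 (adjusted p = 0.164 and 0.207 by edgeR). Gzma had 0, 0, 0, 3, 2 and 0 counts in HT + Sham and 2, 7, 16, 7, 5 and 2 in HT + Stroke. All stroke libraries had a count of Gzma, against 2 of 6 sham libraries, and the difference was 2.66 ± 0.78 (adjusted p = 0.124 by edgeR).

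Without HT + Stroke libraries 1 and 6, which were left out after their values had been seen, and with no filter, 5 of the 10 genes rose, against 3.43% of genes. These were Cd3d at 2.96 ± 0.75, Gzma at 3.03 ± 0.79, Cd8b1 at 2.69 ± 0.76, Cd2 at 1.997 ± 0.561 and Cd8a at 2.19 ± 0.66 (adjusted p = 0.0133, 0.0175, 0.0308, 0.0306 and 0.0487 by edgeR). Libraries 1 and 6 had the lowest counts of HT + Stroke in each of these genes, so leaving them out raises the stroke mean of these genes. HT + Sham library 6 was kept in this fit. Nkg7 was at 1.95 ± 0.62, Cd4 at 1.75 ± 0.54, Cd3e at 1.01 ± 0.57 and Cd3g at 0.56 ± 0.53 (adjusted p = 0.0711, 0.163, 0.425 and 0.628). With the filter the same omission gave 0 of the 10 genes. A gene that fails the filter cannot be called, and with all libraries kept only Cd4 and Trbc2 passed it.

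The plot of CD3 chains against Cd68 places these libraries. Summed over the CD3 chains, the 10 highest of the 24 libraries were all stroke libraries, led by HT + Stroke library 3 at 2.38 CPM. HT + Stroke libraries 5 and 1 came at ranks 15 and 17, at 0.804 and 0.683 CPM, among the sham libraries. HT + Sham library 6 was the highest sham library at 1.10 CPM. HT + Stroke libraries 1 and 6 had 19.6 and 18.7 CPM of Cd68, the lowest of the stroke libraries, and library 6 nevertheless had 1.34 CPM of the CD3 chains. The part of the amount of lesion in each section in these differences was not tested.

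**Figure D2:**
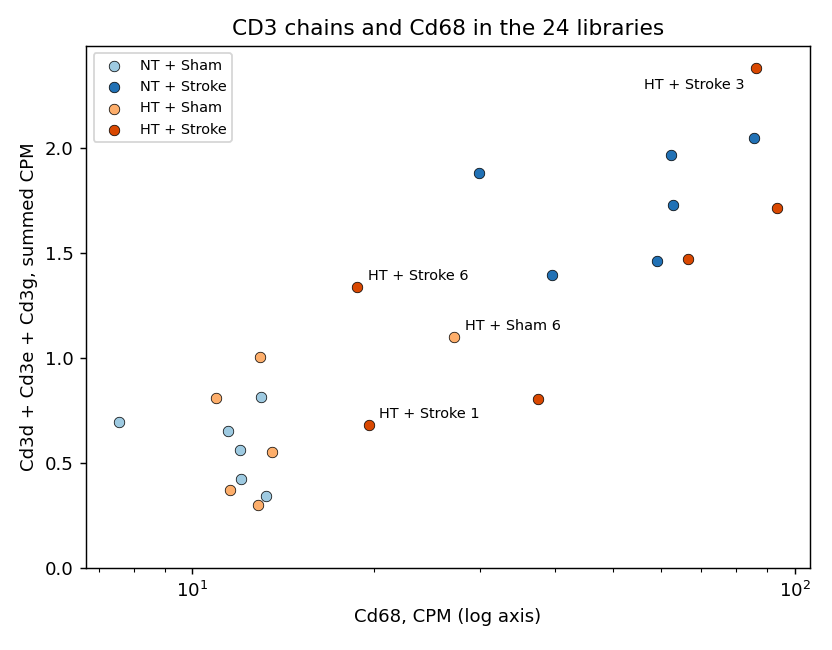
Summed CPM of Cd3d, Cd3e and Cd3g (vertical axis, linear) against CPM of Cd68 (horizontal axis, logarithmic) in the 24 libraries, coloured by group, with 4 libraries named. The 6 NT + Stroke libraries lie between 1.40 and 2.05 CPM of the CD3 chains, and HT + Stroke libraries range from 0.683 to 2.38 CPM.

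Hypertension alone was examined in HT + Sham vs NT + Sham. None of the 10 genes was called, nor was any of the 16581 genes tested (0 with DESeq2 as well, and 8.03% with unadjusted p below 0.05, or 7.51% with no filter). All 10 genes overlapped between the sham groups, where 0.126% of all genes were higher without overlap and 0.0975% lower. The CD3 chains had a summed count of 5 to 22 under angiotensin II and 6 to 15 under saline, and the CD8 chains of 0 to 8 and 1 to 8. At counts this low the standard errors were wide, for example 0.31 ± 1.08 for Cd3d and 0.24 ± 1.03 for Cd8b1 on the log2 scale, so that differences of several fold were not detectable at this depth. Trbc2, at -0.30 ± 0.11 with no filter, had the smallest p of the 10 genes (adjusted p = 0.598 by edgeR).

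The effect of hypertension on the stroke brain was examined in HT + Stroke vs NT + Stroke. None of the 10 genes was called, and none of the 17008 genes tested (0 by DESeq2, and 7.23% with unadjusted p below 0.05, or 6.82% with no filter). Of the 6 genes that passed the filter, Cd3e was at -0.44 ± 0.34, Cd3g at -0.34 ± 0.32, Cd2 at -0.27 ± 0.40 and Nkg7 at -0.36 ± 0.38 on the log2 scale. The abundant genes were at 0.35 ± 0.41 for Cd4 and 0.53 ± 0.19 for Trbc2 (adjusted p = 0.798 and 0.654 by edgeR). Cd8a and Cd8b1, fitted with no filter, were at -0.23 ± 0.49 and -0.21 ± 0.48. Each group's range lay across the other's for all of these genes. For several the direction rested on HT + Stroke libraries 1 and 6, since without them and with no filter Cd3d was at 0.41 ± 0.49 (beside -0.02 ± 0.52 with them), Cd8a at 0.16 ± 0.44, Cd8b1 at 0.21 ± 0.47 and Cd2 at 0.027 ± 0.413. Cd2 also changed sign, to 0.048, without NT + Stroke library 6.

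Gzma was the gene with the largest difference here. It had 39 counts over the HT + Stroke libraries and 16 over the NT + Stroke libraries, of which 8 came from library 1. All 6 HT + Stroke libraries were above the NT + Stroke median, but only library 3 was above every NT + Stroke library. The difference was 1.30 ± 0.62 with no filter (adjusted p = 0.607 by edgeR), and 1.68 ± 0.63 without HT + Stroke libraries 1 and 6 (adjusted p = 0.751).

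Whether the response to stroke differed between NT and HT mice was tested as an interaction over the 24 libraries. None of the 10 genes was called, and 0 of 17608 genes were called by edgeR (22 or 0.131% by DESeq2, which gave an adjusted p for only 2 of the 10, Cd4 and Trbc2, and called neither, and 10.4% with unadjusted p below 0.05, or 8.82% with no filter). The estimate was positive where the rise was larger, or the fall smaller, in HT mice. It was 2.90 ± 1.11 for Gzma (adjusted p = 0.477 by edgeR with no filter) and 0.83 ± 0.24 for Trbc2 in the filtered test (adjusted p = 0.319 by edgeR). Trbc2 rose in neither, at -0.85 in NT and -0.01 in HT mice. In the filtered test the estimate was -0.99 ± 0.56 for Cd3g and -0.33 ± 0.69 for Cd3e. With no filter it was -0.33 ± 1.06 for Cd3d, -0.37 ± 0.98 for Cd8a and -0.47 ± 1.04 for Cd8b1. Without HT + Stroke libraries 1 and 6 it was 3.28 ± 1.12 for Gzma and 0.58 ± 0.23 for Trbc2 with no filter (adjusted p = 0.813 for both by edgeR), and that of Cd3d and Cd8a turned to 0.09 ± 1.94 and 0.02 ± 1.24. The plot of fitted differences sets the comparisons side by side. Comparisons that share a group of libraries are not independent of each other.

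**Figure D3:**
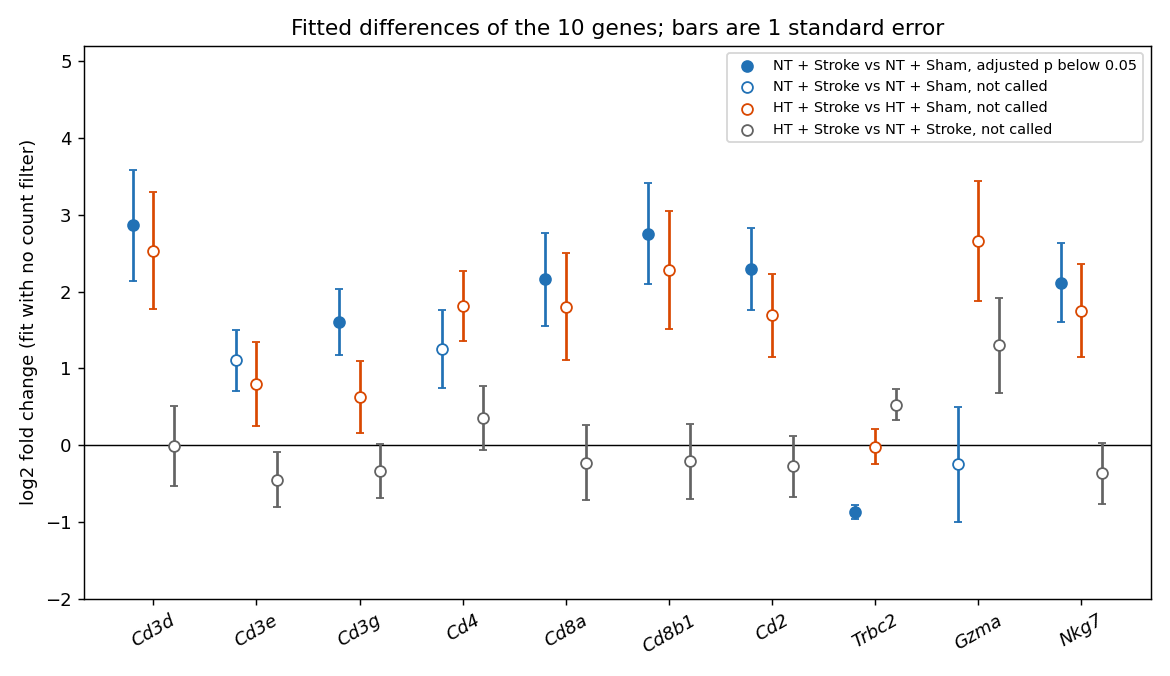
Log2 fold change (vertical axis, edgeR fit with no count filter) of each of the 10 genes in NT + Stroke vs NT + Sham (blue), HT + Stroke vs HT + Sham (orange) and HT + Stroke vs NT + Stroke (grey), with 1 standard error. Filled points have an adjusted p below 0.05, and they are 7 of the 10 blue points and none of the others.

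Trbc2 behaved unlike the other T cell genes. It encodes one of the constant regions of the beta chain of the T cell receptor and is annotated as a constant region gene at chr6:41546730-41548352 (GRCm38, plus strand), next to its copy Trbc1 at chr6:41538218-41539881. Trbc2 was at 38.5, 35.5, 40.2, 34.8, 40.1 and 37.1 FPKM in NT + Sham and at 17.5, 27.2, 22.5, 20.6, 19.5 and 22.9 FPKM in NT + Stroke. Every stroke library was below every sham library. The fall was -0.85 ± 0.09 on the log2 scale in the filtered test (adjusted p = 3.84e-06 by edgeR), and it was called in each of the 12 fits that left out a library.

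In HT + Sham Trbc2 was at 25.2, 36.2, 33.1, 40.1, 30.1 and 22.1 FPKM, and in HT + Stroke at 38.3, 30.4, 17.8, 34.9, 24.3 and 42.3 FPKM. The groups covered nearly the same range, and HT + Stroke libraries 1 and 6, the ones low in Gfap and Cd68, were the highest of their group. With no filter the difference was -0.023 ± 0.227 (adjusted p = 0.993 by edgeR), and it was not called without those libraries either, at -0.26 ± 0.22 (adjusted p = 0.611).

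The other chains of the receptor had levels like those of the CD3 genes. Trbc1 was at 0.161 to 1.89 FPKM over all libraries, Trac (the alpha chain constant region) at 0.164 to 1.57 FPKM and Cd3e at 0 to 0.288 FPKM, so that Trbc2 in each library was far above all of them. Trac had 5 to 10 counts in NT + Sham and 15 to 24 in NT + Stroke and rose by 1.33 ± 0.34 with no filter (adjusted p = 0.00398 by edgeR), while Trbc2 fell. It also rose in the filtered test, at 1.34 ± 0.28, where it passed the filter through the stroke libraries. Trbc1 had 3 to 7 and 3 to 29 counts, at 0.90 ± 0.48 with no filter (adjusted p = 0.247). Cd247, the zeta chain that completes the CD3 complex, had 20 counts over the NT + Sham libraries, 21 over NT + Stroke, 7 over HT + Sham and 42 over HT + Stroke. It was not called, at 0.02 ± 0.74 in NT and 2.38 ± 0.67 in HT mice with no filter (adjusted p = 0.989 and 0.103 by edgeR).

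Receptor segments gave a similar contrast in levels. The 7 Trbj2 joining segments, which lie before Trbc2, together had 70 to 96 counts per group. The 2 Trbj1 segments in the tables had 0 to 2. The 13 beta variable segments together had 8 counts in NT + Sham, 28 in NT + Stroke, 6 in HT + Sham and 38 in HT + Stroke, whereas Trbc2 had 3002, 1793, 2230 and 2285. The 24 alpha variable segments together had 66, 49, 52 and 60 in the same order. Segment genes are short and many are near copies of each other, and so their counts are uncertain.

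Trbc1 and Trbc2 are near copies, and reads from the identical part cannot be given to one of them. Over the 518 coding bases (GENCODE release M21, GRCm38) 495 matched, or 95.6%, and the longest identical run was 259 bases. Of the 23 bases that differed, 22 lay in the last 150 coding bases, which are shown here because reads over them can tell the genes apart, with the differing bases in capitals. They span 3 introns, within chr6:41538586-41539662 for Trbc1 and chr6:41547098-41548178 for Trbc2.
Trbc1: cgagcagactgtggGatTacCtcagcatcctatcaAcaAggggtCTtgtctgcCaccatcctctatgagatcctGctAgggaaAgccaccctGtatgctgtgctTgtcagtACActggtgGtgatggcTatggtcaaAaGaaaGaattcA
Trbc2: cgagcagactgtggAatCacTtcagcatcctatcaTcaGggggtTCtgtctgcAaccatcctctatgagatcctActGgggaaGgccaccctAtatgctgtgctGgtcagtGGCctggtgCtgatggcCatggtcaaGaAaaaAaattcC
How the authors treated reads that match both genes was not given in the sources used here.

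Across the 24 libraries with the group means removed, the genes whose log2 level was most like that of Trbc2 were Lmo4 (Pearson r = 0.90, a transcription cofactor of cortical neurons), Atp6v1e1 (0.88, a proton pump subunit), Prkcb (0.88, a protein kinase C), Wdr77 (0.86) and Snap47 (0.86), out of 17007 genes. This search was made after the levels of Trbc2 had been seen and is a description of libraries that share depth and tissue. Among the 8 cortical neuron markers r ran from 0.23 for Cux2 and 0.24 for Camk2a, the most abundant, to 0.73 for Fezf2, and it was -0.60 for Ptprc, the common leukocyte gene CD45, and -0.60 for Cd3e. The 8 cortical neuron markers together were at 6246 to 6501 CPM in NT + Sham and at 4315 to 5471 CPM in NT + Stroke, and 7 of the 8 fell. Most of this sum came from Camk2a and Slc17a7, at 2465 and 2367 CPM on average over the 24 libraries, so it mainly follows these genes. Per 100 CPM of the 8 markers, Trbc2 was at 0.383 to 0.444 CPM in NT + Sham and at 0.254 to 0.365 CPM in NT + Stroke, without overlap. It was at 0.257 to 0.454 CPM in HT + Sham and 0.252 to 0.525 CPM in HT + Stroke, which overlapped. In a fit with the mean level of these markers as a covariate, Trbc2 was at -0.08 in NT + Stroke vs NT + Sham (adjusted p = 0.964 by edgeR), but in that fit 0 genes of any kind were called. The part of neurons in the level of Trbc2 was not tested.

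**Figure D4:**
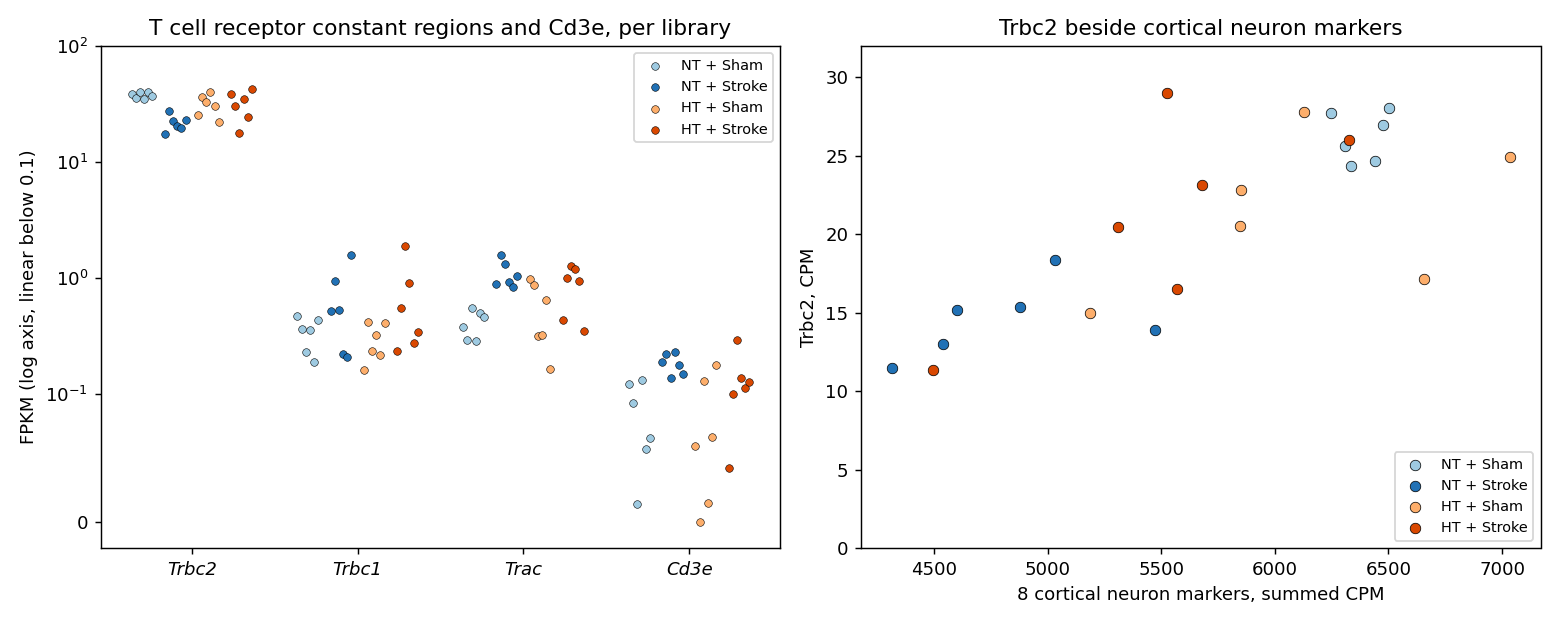
Left, FPKM (vertical axis, logarithmic above 0.1 and linear below) of Trbc2, Trbc1, Trac and Cd3e in the 24 libraries, coloured by group, with Trbc2 between 17.5 and 42.3 and the rest below 1.90. Right, CPM of Trbc2 against the summed CPM of 8 cortical neuron markers (both axes linear), where the NT + Stroke libraries are low on both axes and the NT + Sham libraries high on both.

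Cd4, the coreceptor of helper T cells (chr6:124864692-124888221), was the other abundant gene, and it varied widely within groups. In counts it was at 81, 194, 174, 38, 105 and 179 in NT + Sham and at 279, 329, 434, 79, 320 and 549 in NT + Stroke. All stroke libraries but library 4 were above all sham libraries. The difference in the filtered test was 1.28 ± 0.50 (adjusted p = 0.0864 by edgeR, and 0.154 with no filter). It passed in the filtered test without NT + Stroke library 4, at 1.51 (adjusted p = 0.0110), and by DESeq2 (adjusted p = 0.0484). It also passed with the library number as a replicate block, as given in the last section. In HT + Sham Cd4 had 70, 109, 115, 67, 248 and 29 counts and in HT + Stroke 382, 539, 486, 365, 186 and 377. Only sham library 5 and stroke library 5 overlapped, and the difference in the filtered test was 1.82 ± 0.43 (adjusted p = 0.0794 by edgeR, 0.141 with no filter and 0.00476 by DESeq2). It passed in edgeR without HT + Sham library 5, at 2.22 (adjusted p = 0.0354), and without HT + Stroke library 5, at 1.97 (adjusted p = 0.0499). Without HT + Stroke libraries 1 and 6 it was 1.75 (adjusted p = 0.0833 by edgeR), and without these and HT + Sham library 6 it was 1.54 (adjusted p = 0.0497).

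The spread of Cd4 went with genes of the striatum, the region beneath the frontal cortex. Across the 24 libraries with the group means removed, the genes most like Cd4 of 17007 included Rxrg (r = 0.97, a retinoid receptor), Drd2 (0.96, the D2 dopamine receptor), Scn4b (0.96, a sodium channel subunit), Six3os1 (0.96) and Adora2a (0.96, an adenosine receptor). This search too was made after the values of Cd4 had been seen. For comparison r was 0.32 with Cd3g, 0.29 with Trbc2, 0.28 with Trac, 0.25 with Cd2, -0.12 with Nkg7 and -0.39 with Cd3e. Among 10 microglia and macrophage markers it ran from -0.35 for Mrc1 to 0.32 for Itgam, with Cx3cr1 at -0.04 and Tmem119 at -0.15. Library 4 of NT + Stroke and library 6 of HT + Sham, the lowest of their groups in Cd4, had 206 and 47 counts of Drd2, against group medians of 1103 and 283.5.

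The sum of 8 striatal markers was 376 to 1643 CPM in NT + Sham, 482 to 2193 in NT + Stroke, 354 to 1106 in HT + Sham and 883 to 2766 in HT + Stroke, so it varied several fold between sections of 1 group. None of the 8 was called in either stroke comparison, and their log2 differences were 0.38 to 1.01 in NT and 0.96 to 2.02 in HT mice. Per 100 CPM of these markers Cd4 was at 0.542 to 0.851 CPM in NT + Sham and at 0.656 to 1.48 in NT + Stroke, and at 0.410 to 1.20 in HT + Sham and 0.953 to 1.52 in HT + Stroke. With the mean striatal marker level as a covariate the difference in Cd4 was 0.53 in NT mice (adjusted p = 0.0117 by edgeR) and 0.39 in HT mice (adjusted p = 0.383), smaller in both than without it. The amount of striatum in each section cannot be told apart from a difference in striatal cells, and its part in the level of Cd4 was otherwise not tested.

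**Figure D5:**
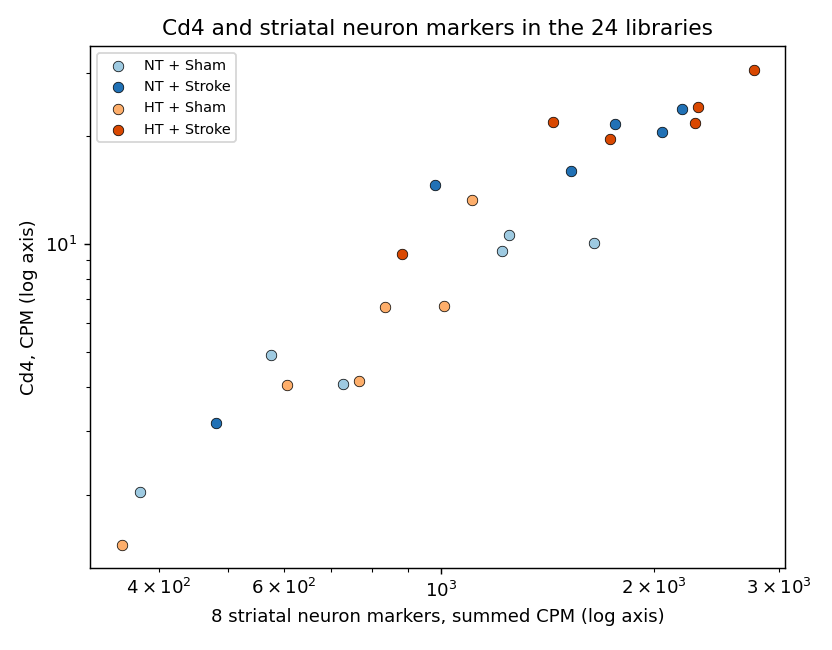
CPM of Cd4 (vertical axis, logarithmic) against the summed CPM of 8 striatal neuron markers (horizontal axis, logarithmic) in the 24 libraries, coloured by group. The libraries lie along a rising band from HT + Sham library 6, at 1.45 CPM of Cd4, to HT + Stroke library 2, at 30.6 CPM.

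Other genes of T cells and cytotoxic cells were examined from lists chosen by function. Counts of calls in this and the next paragraphs are from the fit with no filter in NT + Stroke vs NT + Sham, to be read against 7.05% of all genes that rose and 6.07% that fell. Of 17 genes of T cell receptor signalling 5 rose, among them Lcp2 at 1.19 ± 0.19, Fyb at 1.77 ± 0.25 and Rhoh at 1.20 ± 0.26. The T cell kinase gene Zap70, at -0.07 ± 0.18 (adjusted p = 0.867 by edgeR), and the T cell surface gene Cd6, at -0.10 ± 0.19 (adjusted p = 0.792), were among the most abundant of that list. Of 15 genes of co-stimulation and checkpoints 5 rose. Lag3, the most abundant at 21.0 CPM on average and known from microglia and neurons as well, rose by 1.58 ± 0.13, and Pdcd1, the checkpoint receptor PD-1, rose by 2.66 ± 0.54. Cd28 at 1.05 ± 0.37, Havcr2 at 0.72 ± 0.19 and Cd96 at 4.09 ± 1.29 were the others.

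Of 12 T cell transcription factors 6 rose and 1 fell. The fall was in Tox, at -0.57 ± 0.08, and the largest rise was in Runx3, a factor of cytotoxic T cells and also of myeloid cells, at 3.92 ± 0.63. Bcl11b and Zbtb7b, the most abundant of the list and also expressed in brain cells, were at 0.04 ± 0.08 and 0.17 ± 0.12 (adjusted p = 0.807 and 0.440 by edgeR). Foxp3, the factor of regulatory T cells, had 12 counts over the NT + Sham libraries and 28 over the NT + Stroke libraries.

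Of 13 cytotoxic effectors 7 rose. The pore-forming protein gene Prf1 had 3 counts in all NT + Sham libraries together and 25 in NT + Stroke, and the granule protease gene Gzmb had 2 and 17. The most abundant genes of the list were Lamp1, Srgn, Ctsc and Cst7, which are lysosomal or granule genes that microglia and macrophages also express, and they rose by 0.36 ± 0.06, 0.76 ± 0.11, 1.46 ± 0.12 and 5.80 ± 0.56. The chemokine gene Ccl5, made by cytotoxic T cells among others, rose by 3.74 ± 0.43. Ifng, the gene of interferon gamma, had 1 count in each of these groups.

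Of 12 natural killer receptor genes 3 rose, namely Il2rb at 2.74 ± 0.39, Klrk1 at 3.13 ± 0.63 and Klrc2 at 3.43 ± 1.16. The first is shared with T cells. The defining natural killer genes Ncr1 and Klrb1c had 19 and 4 counts over the NT + Sham libraries and 34 and 22 over the NT + Stroke libraries. The summed count of the list was 8 to 25 per library in NT + Sham, 53 to 95 in NT + Stroke, 15 to 59 in HT + Sham and 18 to 152 in HT + Stroke.

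Of 15 homing and residency genes 10 rose and none fell. Among them were Il7r, the interleukin 7 receptor, at 2.16 ± 0.35, the chemokine receptor gene Cxcr3 at 1.95 ± 0.49 and Cxcr6, a receptor of tissue-resident T cells, at 1.77 ± 0.62. Of 10 chemoattractants and adhesion genes 7 rose. They included Cxcl10 and Cxcl9, ligands of CXCR3, at 3.30 ± 0.28 and 2.62 ± 0.61, and Cxcl16, the ligand of CXCR6, at 2.40 ± 0.18. Of the receptor chains other than the 10 genes, 1 of 4 rose, which was Trac.

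In HT + Stroke vs HT + Sham, with no filter, 1 of the co-stimulation genes rose, Pdcd1 at 3.22 ± 0.67, and 1 of the homing genes, Cxcr6 at 3.54 ± 0.79. These lists were not counted without HT + Stroke libraries 1 and 6. No other gene of these T cell and cytotoxic lists was called, beside 0.458% of genes that rose. In the filtered test, against 0.544% of genes that rose, Cxcl10 rose by 2.88 ± 0.55 (adjusted p = 0.0327 by edgeR). In HT + Sham vs NT + Sham and in HT + Stroke vs NT + Stroke none of them was called.

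Other cell types moved in the same libraries. In NT + Stroke 8 of 10 microglia and macrophage markers rose, and their sum was 213 to 228 CPM in NT + Sham, 406 to 1041 in NT + Stroke, 228 to 434 in HT + Sham and 260 to 1186 in HT + Stroke. Of 9 B cell markers 6 rose, among them the plasma cell gene Jchain at 1.93 ± 0.44, and their sum was 43.7 to 57.6, 46.6 to 145, 38.8 to 61.2 and 49.4 to 184 CPM in the same order of groups. Of 7 neutrophil markers 2 rose, S100a8 and Csf3r, and Ly6g had 9 counts over all 24 libraries. Of 7 meningeal fibroblast markers 6 rose, led by Col1a1 at 3.62 ± 0.37. Of 8 dendritic cell markers 3 rose and 1 fell, which was Zbtb46 at -0.44 ± 0.12, and of 5 astrocyte markers 3 rose, among them Gfap at 2.37 ± 0.16. Of 9 blood and platelet markers 1 rose, the platelet gene Pf4, which macrophages also express. The sum of these 9 markers was 68.3 to 97.7, 44.9 to 189, 50.2 to 315 and 65.0 to 164 CPM in the same order. RNA of these markers was thus present in all groups, at ranges that overlapped, and the cells it came from were not tested. The part of blood, meninges and myeloid cells in the rise of the T cell genes was not tested.

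Within the stroke libraries, the genes most like the mean level of the 10 genes were sought over the 12 stroke libraries with the group means removed. The 10 most alike of 17002 genes were Itga5 (r = 0.95), C530044C16Rik (0.94), Clec12a (0.93), Rarres2 (0.92), Cd80 (0.92), Apoc4 (0.92), Col14a1 (0.91), Bcl2a1b (0.91), Lpl (0.90) and Fkbp7 (0.90). Clec12a is a receptor of myeloid cells, Cd80 a ligand for T cell co-stimulation on presenting cells and Itga5 a chain of the fibronectin receptor. None of these is a gene of the T cell receptor, but this was nearly fixed beforehand. The search left out the 10 genes themselves, and of the other receptor chains only 1, Trac, was eligible. The mean includes Cd4 and Trbc2, and for the mean of the CD3 chains alone the most alike of 17006 genes were others, led by Dnaaf3 (0.95), Tmem131l (0.93), Akr1b8 (0.90) and Sqor (0.89).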

How the data were processed

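Poly(A) RNA from 4 groups of mice was sequenced in 24 libraries, 6 per group. GEO lists 1 sample per group, and the libraries were identified by the group and number in the column names of the 4 deposited tables. The authors deposited raw read counts per gene and FPKM values, in which they divided the counts by gene length and library size. Per the labels, the submitters' processing notes name featureCounts 1.5.0-p3 and DESeq2 1.20.0. The aligner, the genome build, the strand setting and the treatment of reads that match several genes are not given in the sources used here. The 4 tables were joined by gene ID to 33981 genes, and all 48 columns shared between tables held the same values. The tables also hold 48 columns of normalized counts and the authors' fold changes and p-values, which were not used.

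Counts were tested with edgeR 4.0.16 in R 4.3.3 (quasi-likelihood F-test, robust, TMM scaling, filterByExpr with a minimum count of 10 and a total of 15), with each pair of groups fitted on its own and the interaction over all 24 libraries. A gene was called at a Benjamini-Hochberg adjusted p below 0.05 over all genes tested. Since most of the 10 genes fail that filter, they were also fitted with no filter, over all genes with at least 1 count. The alternatives were DESeq2 1.42.0, other scalings, limma 3.58.1 on log2(FPKM + 1) and log2(FPKM + 0.1), 1 fit over all groups, the library number as a block, each library left out in turn, and, chosen after seeing the data, omission of the libraries that stood apart and marker levels as covariates. Only the filtered edgeR test was checked on simulated counts before use, with changes planted in genes of higher counts than most of the 10. The fit with no filter was not checked in this way. CPM is the count scaled to the library total times its TMM factor, estimated over all 24 libraries. Likeness is Pearson's r of log2(CPM + 1) with group means removed.

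The 10 genes, the lists and the tests were chosen with earlier results of these data known, and the striatal list after the values of Cd4 had been seen. Genes of a list were named where called, where defining for a cell type, or where among the 4 most abundant of the list, and others were chosen after their values were seen. Totals of 15922919 to 24865998 counts per library leave most of the 10 genes with under 20 counts, so that counting error alone is large. Some genes of the lists and of the likeness search are not reported here by name.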

Additional observations from a re-analysis of the deposited data

Results flagged for a closer look

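In 40 groups of 6 libraries (10 genes in 4 groups) the highest or lowest CPM was compared with its nearest neighbour by Dixon's test. It stood apart in 5 groups. For normally distributed values chance alone flags about 1 group in 20, or 2 of 40. Most of these groups hold low counts, for which that rate need not hold, so no excess over chance is claimed. Library 6 of HT + Sham was high in Cd3d, at 0.200 CPM (4 counts) with the next library at 0.0593, and in Cd8b1, at 0.2504 CPM (5 counts) with the next at 0.0617. Library 5 of NT + Sham was high in Cd8a, at 0.327 CPM (7 counts) with the next at 0.107. Library 6 of NT + Stroke was high in Cd2, at 1.22 CPM (31 counts) with the next at 0.626. Library 1 of NT + Stroke was high in Gzma, at 0.418 CPM (8 counts) with the next at 0.164.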

How the results depend on the processing

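Of the 10 genes, 2 were called in NT + Stroke vs NT + Sham as tested, 9 by DESeq2, 7 with no filter and 4 with all 24 libraries in 1 fit, and 2 to 3 with a library left out. In HT + Stroke vs HT + Sham 0 were called as tested, and 1 by DESeq2, by limma on log2(FPKM + 1), in the fit of all 24 libraries and at an unadjusted p, 0 to 1 with a library left out, and 5 with no filter and without HT + Stroke libraries 1 and 6. With the filter, 0 were called without HT + Stroke libraries 1 and 6 and 1 (Cd4) without these and HT + Sham library 6. Genes that fail the filter cannot be called. As tested, 3 of the 10 passed it in NT + Stroke vs NT + Sham and 2 in HT + Stroke vs HT + Sham. For the interaction and for both comparisons of HT with NT libraries 0 were called, and 1 each at an unadjusted p. Over all genes HT + Stroke vs HT + Sham gave 108 calls, 907 by DESeq2, 179 with no filter, 67 with no scaling, 68 by limma on log2(FPKM + 1), 1125 with all 24 libraries in 1 fit, 1172 without HT + Stroke libraries 1 and 6, 1437 without these and HT + Sham library 6, 3 with the striatal covariate, and 9 to 533 with a library left out. The interaction gave 0 calls, and 22 by DESeq2. The causes were not tested.

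Direction reversed for these uncalled values. Trbc2 in HT + Stroke vs HT + Sham was 0.30 with the cortical covariate and -0.13 to 0.12 with a library left out. Cd4 in HT + Sham vs NT + Sham was 0.16 with the striatal covariate and -0.58 to 0.027 with a library left out, and its interaction was -0.088 with the striatal covariate. Cd2 in HT + Stroke vs NT + Stroke was 0.018 without HT + Stroke libraries 1 and 6, 0.027 with no filter as well, and -0.63 to 0.048 with a library left out. The interactions of Cd3e, Cd2 and Nkg7 were 0.36, 0.10 and 0.22 without HT + Stroke libraries 1 and 6 and HT + Sham library 6. With a library left out, those of Cd3e and Nkg7 were -0.69 to 0.13 and -0.92 to 0.029.

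Library numbers are shared between groups. Over the genes passing the filter, same-numbered libraries deviated together in some pairs only (correlations of -0.48 to 0.36, over 0.1 in 10 of 24). In NT + Stroke vs NT + Sham these correlations ran from -0.10 to 0.28. Library 4 was the lowest in Cd4 in both, at 38 counts in NT + Sham and 79 in NT + Stroke. The labels do not say whether the numbers mark pairs or batches, and this was not tested. With the library number as a replicate block 3 of the 10 genes were called in NT + Stroke vs NT + Sham, the added one being Cd4 at 1.29 (adjusted p = 1.57e-06 by edgeR), and 0 in the other comparisons, and 46 genes of all in HT + Stroke vs HT + Sham.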
